A study of Rattus norvegicus with 17 samples.

Results

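The comparison described here set cultures carrying α-synuclein A53T against cultures carrying the empty vector, both kept in 0.2 µM FK506. It was chosen by the labels alone and uses 6 of the 17 libraries, 3 per group, with all 11247 genes of the deposited table. The material was primary culture from rat cerebral cortex, labelled as glutamatergic neurons and astrocytes. Genotypes were Alpha-Synuclein A53T in 1 group and Empty Vector in the other, and every culture of both groups had received FK506, so the drug was common to both. The same pair of genotypes in the solvent DMSO (2 A53T and 3 vector libraries) and in 2.0 µM FK506 (3 and 3) served to ask whether the A53T effect differed between doses. Promoter, vector type, the species of the introduced sequence, animal age and any pooling of animals are not stated in the labels.

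α-Synuclein is a protein of presynaptic terminals that binds vesicle membranes and aggregates in Parkinson's disease, and A53T is an inherited form that aggregates more readily. Calcineurin is a phosphatase that calcium and calmodulin switch on. It acts on ion channels, receptors and vesicle proteins at synapses and on NFAT transcription factors, which enter the nucleus once their phosphates are removed. FK506 binds the small immunophilin FKBP12, and the complex blocks calcineurin.

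The 3 A53T libraries at 0.2 µM were nearly the same library. For genes with mean values from 10 to 3000 their pairs differed by 0.995 to 1.05 times Poisson sampling noise, against 1.71 to 9.28 times for pairs of vector libraries at 0.2 µM and 1.48 to 14.5 times in all other groups. From 3000 to 10000 the A53T pairs differed by 1.15 to 1.77 times that noise and vector pairs by 4.48 to 76.1 times, and above 10000 A53T pairs by 1.70 to 3.51 times and vector pairs by 12 to 350 times. These ratios take normalized values as if they were reads. The A53T libraries thus differed by about sampling noise below 3000 and by more above it. They were counted as 1 sample, their mean, so the test borrows its spread from the other groups. Normalized totals were 15091428 to 15154268 in A53T and 15144883 to 16219031 in vector libraries at 0.2 µM, and the raw read depth is unknown. The A53T libraries also stood apart from the other 14 libraries. Along the direction in which libraries of the same group varied most, computed from those 14 libraries and holding 54.3% of their variance within groups, the A53T libraries at 0.2 µM scored 1.12 to 1.13. A score is the signed log2 distance of a library from the vector DMSO mean along that direction. It is divided by the square root of the number of genes. Vector libraries 1, 2 and 3 at 0.2 µM scored -0.0606, 0.342 and 0.309, and no library outside A53T at 0.2 µM lay beyond -0.542 to 0.342. Across the 11247 genes, the A53T log2 fold change at 0.2 µM correlated with the gene's weight on that direction with r = 0.783, or 0.73 when the direction came from the 11 libraries outside both groups compared. Genes are not independent replicates, and vector libraries enter both measures in the first value. A fit with the score as a covariate is quoted below as the score-adjusted fit. It carries the line past the range of the libraries that set it, because A53T at 0.2 µM lies outside that range. The score was also drawn from the same differences within groups that set the spread of that fit. Its spread is therefore made smaller by construction, and a call kept in that fit is no independent support.

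Cell makeup was read from marker lists. Neuronal and astrocyte markers were abundant in both groups. The summed value of 19 pan-neuronal markers was 119590 to 120204 in A53T and 122783 to 128262 in vector libraries. This sum includes Map2, which was far higher in A53T (values below). The summed value of 21 astrocyte markers was 93239 to 93931 in A53T and 104531 to 110843 in vector libraries. Among other cell types, 3 of 18 microglia markers were in the table, with sums of 2808 to 2896 in A53T and 2596 to 3018 in vector, and 3 of 14 endothelial markers, with sums of 68 to 72 and 60 to 92. The 13 fibroblast and meningeal markers measured of 19 summed to 3615 to 3740 in A53T and 3935 to 4306 in vector libraries. In bulk cultures, fewer cells of a type and less RNA per cell cannot be told apart.

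A53T cultures at 0.2 µM differed from vector cultures in most of the transcriptome. Of 11247 genes, 7746 passed (68.9%), with 3803 higher (33.8%) and 3943 lower (35.1%) in A53T, by limma on log2(value + 1) at an adjusted p of 0.05 over all genes. The libraries of the 2 groups did not overlap for 9600 genes (85.4%), with A53T higher for 42.5% and lower for 42.9% of all genes. Since the A53T libraries count as 1 sample, a lack of overlap here and below describes 1 sample beside 3 and is no replicate check, and the closeness of the A53T values is common to the whole group. The score-adjusted fit called 1539 genes higher and 1697 lower. Rises were larger than falls. Among genes that passed, 877 rose by more than 2 on the log2 scale and 36 fell by more than 2, while 327 rose by more than 3. Falls were the more frequent among abundant genes, with 55.2% of the 2812 most abundant genes lower in A53T, against 15.2% of the 2812 least abundant. The median log2 fold change over all genes was -0.01. Of the gene lists described below, those of calcineurin, the unfolded protein response, cholesterol synthesis, the matrix, pan-neuronal markers and reactive astrocytes had shares of members higher and lower within 10 percentage points of those over all genes.

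The same genotypes differed less at the other doses. In DMSO 658 genes (5.85%) were higher and 921 (8.19%) lower in A53T, and at 2.0 µM 1111 (9.88%) were higher and 1091 (9.7%) lower, 19.6% in all. Changes of more than 2 on the log2 scale that passed numbered 913 at 0.2 µM, 31 in DMSO and 31 at 2.0 µM. The median size of the log2 fold change was 0.65 at 0.2 µM, 0.20 in DMSO and 0.21 at 2.0 µM.

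**Figure D1:**
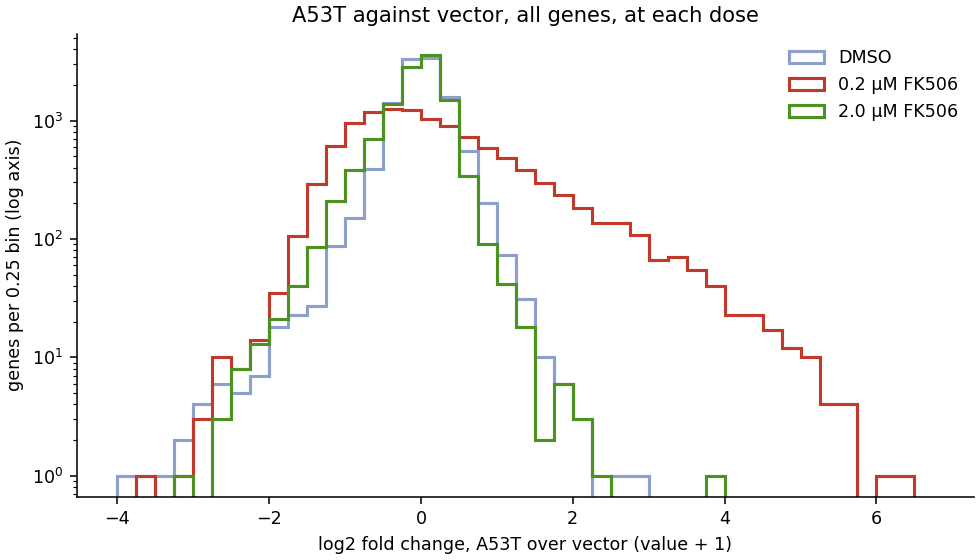
Histogram of the log2 fold change of A53T over vector for all 11247 genes in DMSO, 0.2 µM and 2.0 µM FK506, in bins of 0.25 on the x axis, with genes per bin on a logarithmic y axis. At 0.2 µM the right-hand side extends past 6, and the outlines for DMSO and 2.0 µM lie close together around 0.

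Sncb encodes β-synuclein, a presynaptic relative that slows α-synuclein aggregation in vitro. It read 6335, 6422 and 6351 in A53T and 16239, 13821 and 13679 in vector libraries and fell by 1.19 on the log2 scale, with no overlap between the groups.

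All 16 measured genes of the synuclein and Parkinson's disease list passed, 8 higher and 8 lower, with a median log2 fold change of -0.03. Park7, which encodes the redox-sensitive protein DJ-1, read 1471, 1474 and 1418 in A53T and 4419, 3338 and 3355 in vector libraries. Pink1, a kinase that marks damaged mitochondria, fell by 0.68. Synj1, a lipid phosphatase of vesicle recycling, rose by 2.22, and its score-adjusted value was 0.02, with an adjusted p of 0.932.

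Calcineurin, NFAT and immunophilin genes were called at shares near those over all genes. Of 31 measured, 13 rose (41.9%) and 12 fell (38.7%), against 33.8% and 35.1% of all genes, with a median of 0.20. The score-adjusted fit called 4 higher and 9 lower, with a median of -0.09. The catalytic subunit Ppp3ca read 4258, 4269 and 4305 in A53T and 2069, 2780 and 2636 in vector libraries, a log2 fold change of 0.79 ± 0.23. The 2 groups did not overlap, but the score-adjusted value was -0.24 (adjusted p = 0.126). Ppp3cb, the other abundant catalytic subunit, had 0.48 ± 0.30 and did not pass. Its score-adjusted value was -0.83 and passed (adjusted p = 0.000534). The catalytic subunit Ppp3cc fell by 0.21 and the regulatory subunit Ppp3r1 rose by 0.27, and neither passed in the score-adjusted fit. The call of Ppp3cc was also lost without A53T library 2 or without any 1 of the 3 vector libraries (adjusted p = 0.0536 to 0.0979), and that of Ppp3r1 without vector library 1 (adjusted p = 0.0569).

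The regulators and partners of calcineurin also split. Rcan1, which binds and restrains calcineurin and is itself an NFAT target, read 1314, 1338 and 1329 in A53T and 1654, 1566 and 1568 in vector libraries, a fall of 0.27 that did not pass in the score-adjusted fit. Rcan3, a scarcer relative, rose by 1.86 and did not pass in that fit either. Fkbp1a, which encodes FKBP12, read 7033, 7092 and 7076 in A53T and 13014, 10988 and 11023 in vector libraries. Its A53T libraries lay below all vector libraries, with a log2 fold change of -0.72 ± 0.13, and the score-adjusted value was -0.19 (adjusted p = 0.0539). Fkbp1b, the close relative that binds calcium release channels, fell by 1.30 and kept its call in that fit at -0.82. Calm2 and Calm3, which encode calmodulin, the calcium sensor of calcineurin, fell by 0.66 and 0.54.

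Of the NFAT factors, Nfatc3 read 383, 372 and 359 in A53T and 156, 148 and 138 in vector libraries, a rise of 1.33 ± 0.15. Nfat5, which answers osmotic stress and lacks the calcineurin-binding region, read 1800, 1811 and 1846 in A53T and 554, 556 and 559 in vector libraries, a rise of 1.71 ± 0.15. Every A53T value was above every vector value, and both genes kept their calls in the score-adjusted fit. Nfatc1 rose by 0.82, with 0.33 and no call under quantile normalization, and Nfatc2 had 0.07 ± 0.41 and did not pass. Nfatc1 did not pass in the score-adjusted fit, and Nfatc2 was lower there, at -1.50. Mef2a, a transcription factor that calcineurin activates in neurons, and Crtc1, a CREB coactivator that calcineurin releases to the nucleus, rose by 2.57 and 1.66, and neither passed in the score-adjusted fit.

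Voltage-gated channels set how neurons fire and were among the genes with the largest rises. Of 34 measured sodium, calcium and potassium channel genes, 27 were higher and 1 lower in A53T, with a median log2 fold change of 1.61. Their summed share of a library was 0.413% to 0.417% in A53T and 0.154% to 0.192% in vector libraries. With score adjustment 15 were higher and 3 lower. Kcna2, a potassium channel of axons, read 762, 692 and 712 in A53T and 5.94, 14.3 and 9.34 in vector libraries, a log2 fold change of 6.13 ± 0.74. Cacna1e, the R-type calcium channel, read 3568, 3448 and 3687 in A53T and 70.4, 160 and 121 in vector libraries, a rise of 4.99 ± 0.35. Kcnq3, a subunit of the M-current channel, rose by 3.93, and Cacnb4, a calcium channel β subunit, by 3.62. The calls of these 4 genes held in the score-adjusted fit. In DMSO 0 of the 34 channel genes were higher and 7 lower in A53T, and at 2.0 µM 0 were higher and 3 lower. Over all genes 8.19% were lower in DMSO and 9.7% at 2.0 µM.

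Of 36 glutamate and GABA receptor genes 25 were higher and 6 lower, with a median of 1.03. In the score-adjusted fit 7 were higher and 6 lower, and the median was -0.03. Grin2a, the NMDA receptor subunit that becomes more abundant as neurons mature, read 820, 775 and 830 in A53T and 11.9, 40.3 and 34.5 in vector libraries, a rise of 4.93 ± 0.51. Grin2b, the subunit of young synapses, read 1485, 1563 and 1519 in A53T and 235, 266 and 250 in vector libraries, a rise of 2.60 ± 0.16. Both passed in the score-adjusted fit, at 3.84 and 2.58. The metabotropic receptor Grm5 rose by 3.94, the GABA-A subunit Gabrb1 by 2.76 and the AMPA subunit Gria2, which limits calcium entry, by 1.38. The extrasynaptic GABA-A subunit Gabrd read 159, 141 and 139 in A53T and 557, 485 and 428 in vector libraries. It was also lower in A53T in DMSO, by -1.15, and at 2.0 µM, by -0.92.

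Scaffolds of the postsynaptic density hold these receptors in place. Of 29 measured genes, which include 3 receptor subunits named above, 22 were higher and 5 lower, with a median of 0.92. The score-adjusted fit called 8 higher and 6 lower, with a median of -0.14. Dlg2, the scaffold PSD-93, rose by 2.73. Homer1, which links glutamate receptors to internal calcium stores, read 1437, 1457 and 1431 in A53T and 721, 798 and 799 in vector libraries. Nrgn, which encodes the calmodulin-binding protein neurogranin, went the other way with 651, 608 and 648 in A53T and 3448, 2943 and 2470 in vector libraries, a log2 fold change of -2.20 ± 0.23. All A53T libraries lay below all vector libraries for Nrgn, and the score-adjusted value was -1.22. Of 29 presynaptic genes 15 were higher and 6 lower, with a median of 0.52, and the score-adjusted fit called 6 higher and 13 lower, with a median of -0.26. The large active zone scaffold Bsn and the release site organiser Rims2 rose by 1.29 and 1.37. The small fusion proteins Stx1a, Cplx1 and Rab3a fell by 1.0, 0.61 and 0.71, and all 5 kept these directions and calls in the score-adjusted fit.

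Among motor genes 14 of 27 were higher and 8 lower, with a median of 0.44 and a score-adjusted median of -0.13. Dync1h1, the heavy chain of cytoplasmic dynein, read 22892, 22528 and 22807 in A53T and 9099, 10243 and 10124 in vector libraries, a rise of 1.21 ± 0.08. Its light chain Dynll1 fell by 1.30. Dync2h1, the dynein heavy chain of cilia, rose by 1.68 ± 0.09. Large chromatin, RNA and ubiquitin regulators moved in 1 direction. This list and those of cytosolic ribosomal proteins and expression standards below were drawn up as quality lists and not as pathways. Gene lengths were not used, and whether RNA or library quality differed between the groups was not tested. All 23 members measured of 40 listed were higher in A53T, with a median of 1.45, and 19 were higher and 0 lower in the score-adjusted fit, which called 1539 genes higher and 1697 lower in all. Macf1, a giant linker of actin and microtubules, read 17589, 17008 and 17510 in A53T and 3600, 4286 and 4400 in vector libraries. Birc6, a giant ubiquitin ligase that inhibits apoptosis, rose by 2.56, the ubiquitin ligase Ubr4 by 1.55 and the splicing protein Srrm2 by 1.45.

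**Figure D2:**
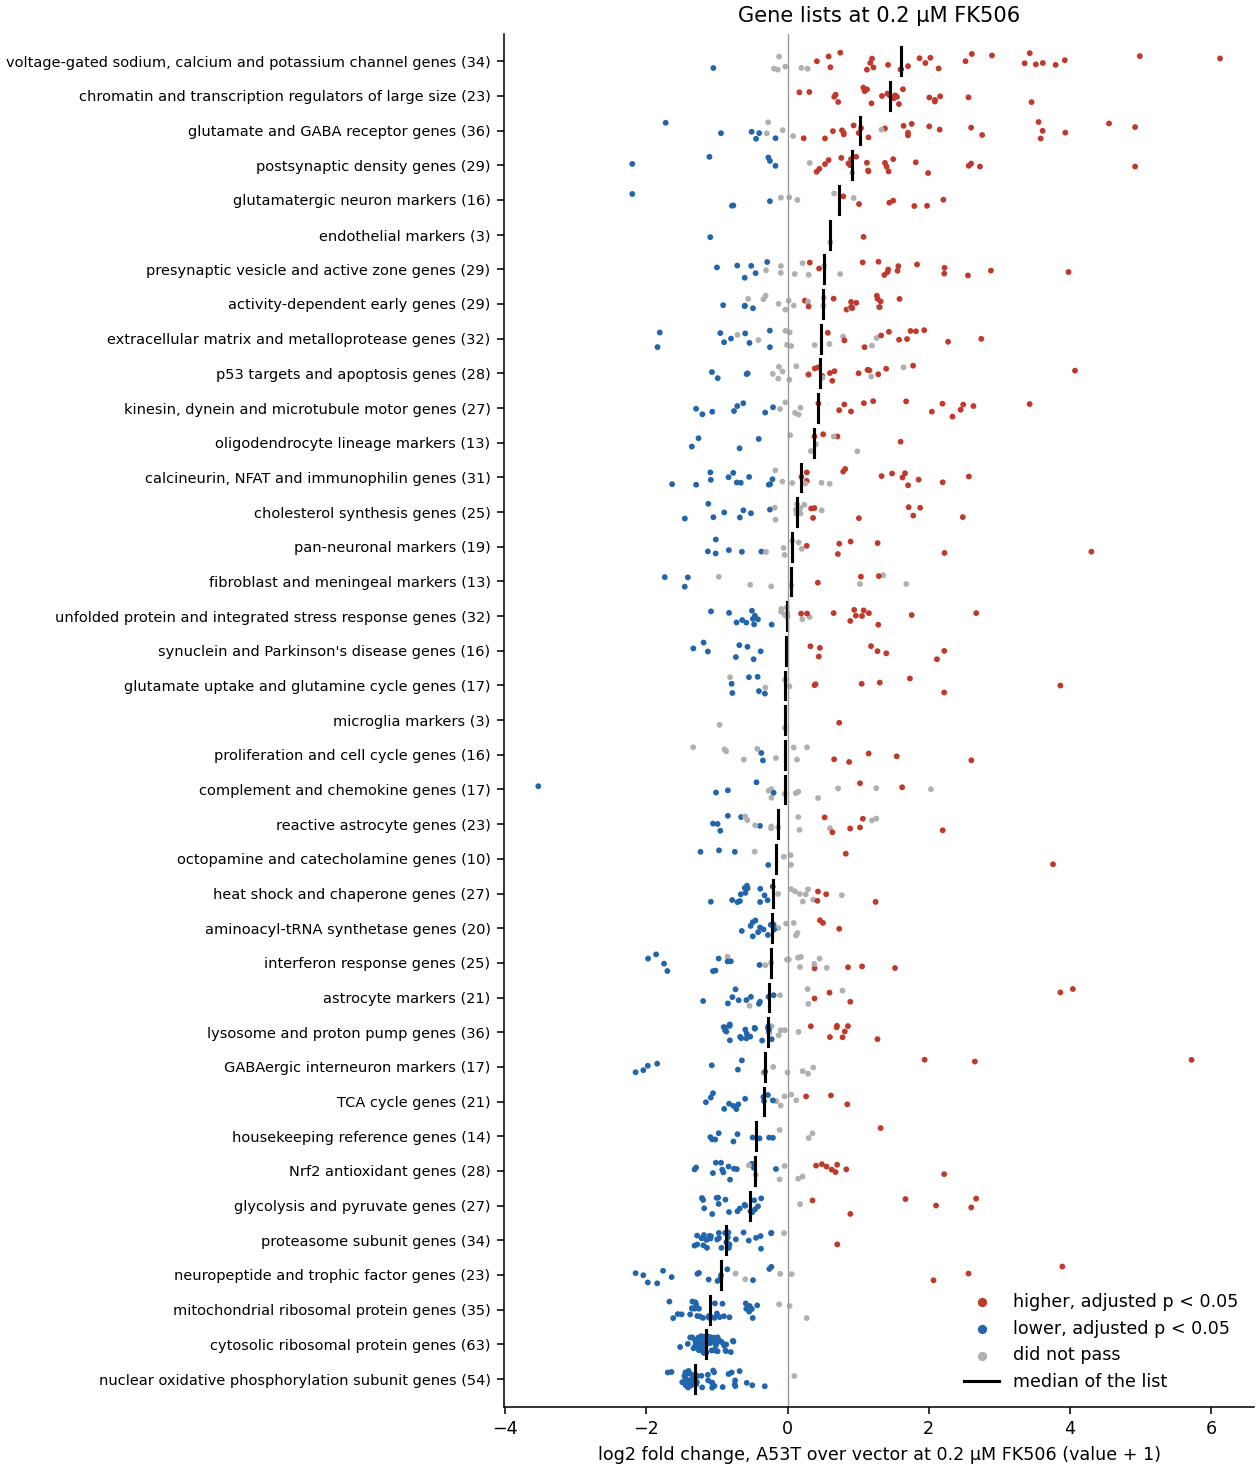
Log2 fold change of A53T over vector at 0.2 µM FK506 (x axis) for every measured member of each gene list (rows, with the number measured), sorted by the median of the list. Red points passed and were higher in A53T, blue points passed and were lower, grey points did not pass, and black bars are medians. Channel genes (1.61) and large regulators (1.45) stand at the top and ribosomal protein (-1.15) and oxidative phosphorylation genes (-1.31) at the bottom.

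Oxidative phosphorylation, in which the respiratory chain of mitochondria drives ATP synthesis, was the group with the lowest median. Of 54 nuclear genes for its subunits, 0 were higher and 53 lower in A53T, with a median log2 fold change of -1.31 and a range of -1.70 to 0.10. In the score-adjusted fit 41 were lower and 0 higher, with a median of -0.34. Ndufv1, a complex I subunit that takes electrons from NADH, read 2153, 2207 and 2135 in A53T and 5988, 4998 and 4914 in vector libraries. Cyc1, cytochrome c1 of complex III, read 2270, 2243 and 2272 in A53T and 5568, 4618 and 4675 in vector libraries. Atp5a1, a subunit of ATP synthase, fell by 0.58. All 3 calls held in the score-adjusted fit. In DMSO 5 of the 54 genes were lower and 0 higher in A53T, with a median of -0.29, and at 2.0 µM 0 were lower and 5 higher, with a median of 0.28. Over all genes 8.19% were lower in DMSO and 9.88% higher at 2.0 µM, so these 2 counts of 5 are near the shares over all genes.

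The enzymes that feed the respiratory chain fell in part. Among 27 glycolysis and pyruvate genes 20 were lower and 6 higher, with a median of -0.53, and 16 were lower and 1 higher in the score-adjusted fit. Ldha, which turns pyruvate into lactate, read 6762, 6642 and 6509 in A53T and 16723, 14322 and 14254 in vector libraries. Aldoc, the brain aldolase found mainly in astrocytes, fell by 1.20 and Pgk1, an ATP-making step of glycolysis, by 0.71. Aldoc was higher in A53T at 2.0 µM, by 0.76. Of 21 TCA cycle genes 13 were lower and 3 higher. Mdh2, mitochondrial malate dehydrogenase, fell by 1.06. Gapdh, a glycolytic enzyme often used as an expression standard, read 28127, 28415 and 28437 in A53T and 66831, 56239 and 55670 in vector libraries. Of 14 such standards measured 10 were lower and 1 higher, with a median of -0.45.

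Ribosomal protein genes, which are among the most highly expressed in any cell, were lower throughout. All 63 measured genes of the cytosolic ribosome fell, with log2 fold changes from -1.52 to -0.77 and a median of -1.15. Their share of a library was 1.93% to 1.94% in A53T and 3.66% to 4.72% in vector libraries. Rps7, a small-subunit protein, read 5823, 5746 and 5793 in A53T and 16900, 12847 and 12588 in vector libraries. Rpl24, a large-subunit protein, fell by 1.31 and did not pass in the score-adjusted fit. In the score-adjusted fit 2 of the 63 were lower and 0 higher, with a median of -0.05. Mitochondrial ribosomal proteins, which make the respiratory subunits coded in mitochondria, had 32 of 35 lower and 0 higher, and 11 lower and 1 higher in the score-adjusted fit. Mrpl14 read 228, 286 and 221 in A53T and 886, 658 and 646 in vector libraries.

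The proteasome degrades ubiquitin-tagged proteins, α-synuclein among them. Of its 34 subunit genes 32 were lower and 1 higher in A53T, with a median of -0.88, and 19 were lower and 0 higher in the score-adjusted fit. Psmb5, the chymotrypsin-like catalytic subunit, read 1198, 1353 and 1273 in A53T and 3693, 2961 and 2943 in vector libraries. Psmd14, which removes ubiquitin chains before degradation, fell by 0.55. Lysosomes clear aggregates by another route. Of 36 lysosome and proton pump genes 22 were lower and 8 higher, with a median of -0.28. Atp6v1e1, a proton pump subunit, fell by 0.88, while Npc1, which exports cholesterol from lysosomes, rose by 0.81. Without vector library 1, whose share of ribosomal protein counts was the highest of the 3, the counts at 0.2 µM were 53 lower of 54 respiratory genes, 63 lower of 63 ribosomal genes, 31 lower of 34 proteasome genes and 25 higher of 34 channel genes.

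**Figure D3:**
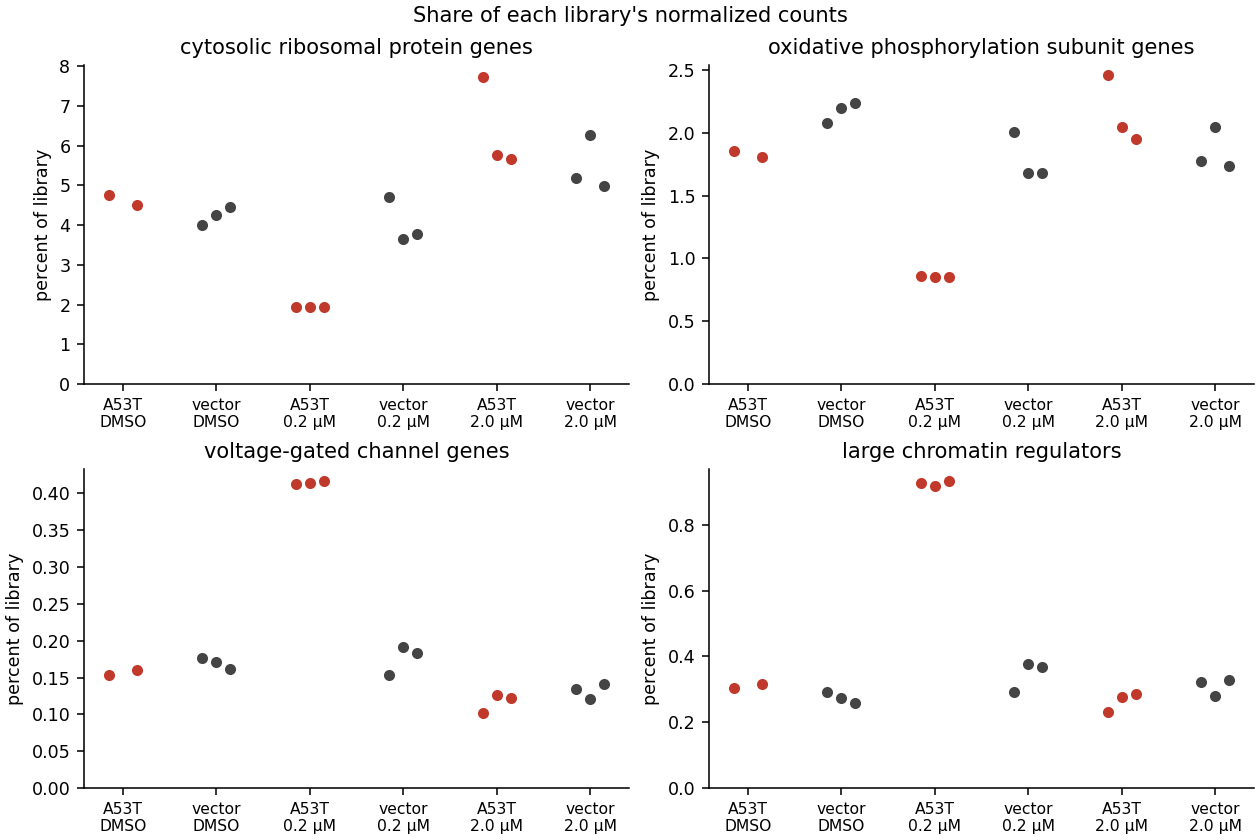
Share of each library's summed normalized counts (percent, y axis, from 0) held by 4 gene lists, with 1 point per library, A53T in red and vector in dark grey at each dose. The 3 A53T libraries at 0.2 µM lie below every other library for ribosomal protein (1.93% to 1.94%) and oxidative phosphorylation genes (0.853% to 0.862%) and above every other library for channel genes (0.413% to 0.417%) and large regulators (0.917% to 0.933%).

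Promoters of 3 lists whose members were mostly lower are shown because these members moved together. The mitochondrial ribosomal list, with 32 of 35 lower, moved together too and is not shown. RefSeq promoters of build GRCr8 matched 8581 of the 11247 genes, and the 250 bases before each start were searched on both strands for CCGGAAGT, a core that ETS factors bind. Factors of the ETS family are known to act on genes of respiration and protein synthesis. The gene shown for each list is the member with the smallest p among those that passed and held the ETS core, which is in capitals. Cox8a encodes a cytochrome c oxidase subunit, Rpl37 a ribosomal protein and Psmb7 a catalytic proteasome subunit.
Cox8a, chr1:213833624-213833873, minus strand: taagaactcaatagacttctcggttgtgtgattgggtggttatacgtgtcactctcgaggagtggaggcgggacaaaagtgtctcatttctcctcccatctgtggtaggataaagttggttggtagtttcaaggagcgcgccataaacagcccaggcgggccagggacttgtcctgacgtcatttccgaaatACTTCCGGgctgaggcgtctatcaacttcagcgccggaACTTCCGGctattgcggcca
Rpl37, chr2:55942695-55942944, plus strand: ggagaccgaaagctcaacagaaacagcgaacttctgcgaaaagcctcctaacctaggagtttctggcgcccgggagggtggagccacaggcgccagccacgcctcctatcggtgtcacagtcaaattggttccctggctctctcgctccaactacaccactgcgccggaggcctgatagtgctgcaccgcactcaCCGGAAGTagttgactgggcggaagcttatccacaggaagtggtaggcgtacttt
Psmb7, chr3:42827471-42827720, minus strand: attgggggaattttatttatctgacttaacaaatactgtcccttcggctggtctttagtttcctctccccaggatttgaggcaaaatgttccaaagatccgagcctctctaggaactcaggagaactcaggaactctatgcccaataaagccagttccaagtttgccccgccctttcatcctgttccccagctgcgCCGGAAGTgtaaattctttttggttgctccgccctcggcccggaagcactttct
The ETS core stood in 13.9% of 36 respiratory promoters, 5 of 50 cytosolic ribosomal and 13.3% of 30 proteasome promoters, against 6.92% of all 8581. Among other lists that were mostly lower it stood in 1 of 27 mitochondrial ribosomal, 1 of 25 lysosome, 0 of 26 glycolysis and 0 of 17 neuropeptide promoters. It stood in 0 of 20 channel and 0 of 16 large-regulator promoters and also in 0 of 19 promoters of astrocyte markers and 0 of 22 of Nrf2 genes. Over all genes that passed it stood in 5.54% of promoters of genes higher in A53T and 8.60% of those of genes lower. An NRF1 motif was searched in the same way and stood in 9.05% of promoters of genes higher and 10.7% of those lower, the CRE motif TGACGTCA in 2.86% and 3.74% and TATAAA in 5.68% and 6.02%. Over all 8581 promoters the shares were 9.28%, 3.09% and 6.12%. The ETS shares in the respiratory and proteasome lists rest on 5 and 4 promoters.

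Neuropeptides and trophic factors are released from dense-core vesicles or secreted, and many depend on neuronal activity. Of 23 measured genes 16 were lower and 3 higher in A53T, with a median of -0.94, and 10 were lower and 2 higher in the score-adjusted fit. Vgf, a precursor of activity-regulated peptides, read 4929, 5223 and 5143 in A53T and 13004, 11974 and 12142 in vector libraries, and it was also lower in A53T in DMSO (-1.12) and at 2.0 µM (-0.63). Sst, the somatostatin precursor of a class of interneurons, read 2897, 2873 and 2981 in A53T and 12121, 10252 and 9323 in vector libraries. Cck, the cholecystokinin precursor, fell by 2.04 and Chga, which helps form the granules, by 1.12. These 4 genes also passed in the score-adjusted fit. Fgf2, a growth factor made by astrocytes, rose by 2.56. In DMSO 13 of the 23 genes were lower in A53T and 0 higher, and at 2.0 µM 4 were lower and 1 higher. Over all genes 8.19% were lower and 5.85% higher in DMSO, and 9.7% and 9.88% at 2.0 µM.

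Of 29 activity-dependent early genes 13 were higher (44.8%) and 4 lower (13.8%), with a median of 0.51. In DMSO 11 were higher and 1 lower, and at 2.0 µM 1 was higher and 7 lower. Over all genes 33.8% were higher and 35.1% lower at 0.2 µM, 5.85% and 8.19% in DMSO, and 9.88% and 9.7% at 2.0 µM. Fosb, an AP-1 subunit, read 1072, 1159 and 1111 in A53T and 364, 279 and 499 in vector libraries, a rise of 1.59 ± 0.32, and its log2 fold change in DMSO was 1.53. Fos rose by 0.97 and the clock gene Per1 by 0.90. Of these 3 Fosb passed in the score-adjusted fit, which called 4 early genes higher and 1 lower. Of 28 p53 targets and apoptosis genes 14 were higher and 4 lower, and 10 were higher and 1 lower in the score-adjusted fit. Hrk, a BH3-only protein that promotes neuronal apoptosis, read 3398, 3310 and 3386 in A53T and 1239, 1324 and 1268 in vector libraries. It rose by 1.40 ± 0.07, beside 1.34 in DMSO and 0.72 at 2.0 µM, where it also passed. Ccng1, a p53-induced cyclin, rose by 1.16 and Tp53inp1, which enhances p53 activity, by 4.07.

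Of 32 genes of the unfolded protein and integrated stress responses 12 were higher (37.5%) and 11 lower (34.4%), with a median of -0.01. These shares are near the 33.8% and 35.1% over all genes. In DMSO 12 of the 32 were higher and 0 lower, against 5.85% and 8.19% of all genes. Sel1l, a part of the machinery that removes misfolded proteins from the endoplasmic reticulum, rose by 2.67, and the foldase Pdia6 fell by 0.58. Of 27 chaperone genes 14 were lower and 4 higher, among them Hspa8, the constitutive Hsp70, at -0.68 and Hspa4l, an Hsp110 relative, at 1.25. Of 20 aminoacyl-tRNA synthetase genes 12 were lower and 3 higher, and the score-adjusted fit called 1 higher and 1 lower. Of 28 Nrf2 antioxidant genes 14 were lower and 8 higher, with a median of -0.47, and 3 lower and 8 higher, with a median of 0.19, in the score-adjusted fit. Slc7a11, the cystine importer for glutathione synthesis, read 517, 517 and 553 in A53T and 118, 113 and 107 in vector libraries. Sod1, the cytosolic superoxide dismutase, read 2554, 2536 and 2549 in A53T and 7818, 5701 and 5742 in vector libraries. Of 25 cholesterol synthesis genes 8 were higher and 8 lower, with Hsd17b7 at 2.48 and Pmvk at -1.46.

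Astrocyte markers did not move together. Of 21 measured 5 were higher and 11 lower, with a median of -0.27, and 1 higher and 7 lower in the score-adjusted fit. Slc1a2, the main glutamate transporter of astrocytes, read 2230, 2178 and 2278 in A53T and 145, 160 and 151 in vector libraries, a rise of 3.87 ± 0.20, with -0.09 in DMSO and -0.50 at 2.0 µM. Its score-adjusted value was 3.98. Gfap, the astrocyte intermediate filament, read 15438, 15764 and 15830 in A53T and 21672, 18576 and 21571 in vector libraries, a fall of 0.39 that did not pass in the score-adjusted fit (0.013). S100b, a calcium-binding protein of astrocytes, fell by 0.69, and the water channel Aqp4 rose by 0.89, with a score-adjusted value of -0.080. Of 23 genes of reactive astrocytes 6 were higher and 6 lower. Osmr, a receptor of the interleukin-6 family, rose by 2.20, while Vim, another filament protein, and Timp1, a protease inhibitor, fell by 0.66 and 0.95. Of these and S100b, Osmr alone passed in the score-adjusted fit.

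Of 19 pan-neuronal markers 7 were higher (36.8%) and 6 lower (31.6%), with a median of 0.07, and in the score-adjusted fit 3 were higher and 10 lower, with a median of -0.29. Map2, a microtubule protein of dendrites, read 18720, 17886 and 18734 in A53T and 410, 1484 and 1327 in vector libraries, where library 1 lay far below the other 2. Its log2 fold change of 4.31 ± 0.89 shrank to 0.13 (adjusted p = 0.622) in the score-adjusted fit. Dcx, a microtubule protein of young neurons, rose by 1.28, while the growth cone protein Gap43 and the deubiquitinase Uchl1 fell by 1.02 and 1.13, and these 3 calls held there. Of 16 glutamatergic markers 7 were higher and 4 lower, with a median of 0.73, and the score-adjusted median was -0.42. The vesicular glutamate transporter Slc17a7 read 6822, 7062 and 6943 in A53T and 6217, 8284 and 7910 in vector libraries. The 2 groups overlapped, and the difference of -0.09 ± 0.23 did not pass, while the score-adjusted value of -1.15 did. Of 17 interneuron markers 8 were lower and 3 higher. Gad2, a GABA-synthesising enzyme, read 2219, 2179 and 2206 in A53T and 227, 442 and 422 in vector libraries, while its relative Gad1 read 3646, 3593 and 3503 in A53T and 3397, 3690 and 3668 in vector libraries, with no difference that passed (-0.36 and passing in the score-adjusted fit). Reln, which encodes the secreted protein reelin, rose by 1.94, and Slc32a1, the vesicular GABA transporter, fell by 0.65.

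**Figure D4:**
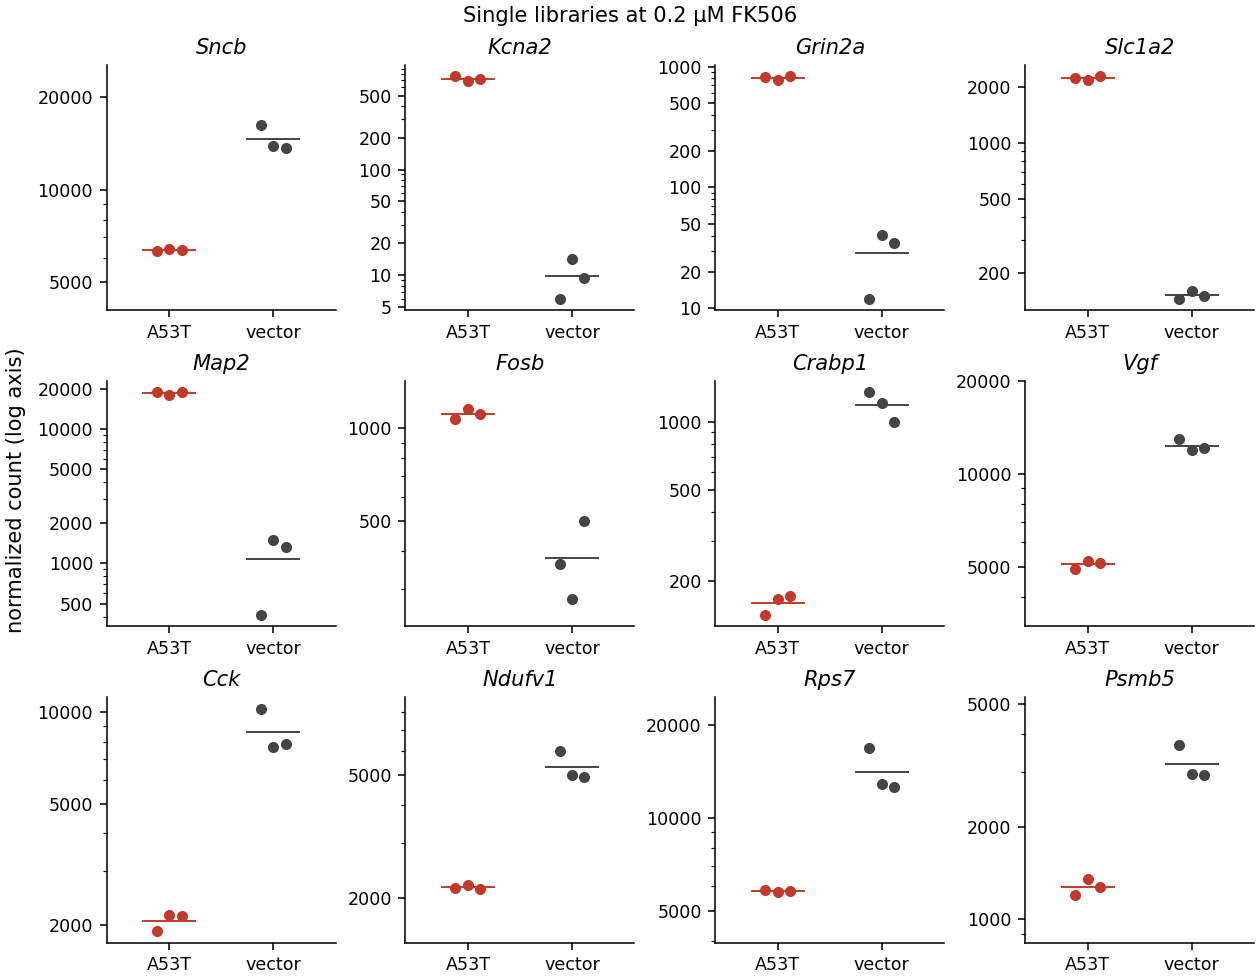
Normalized counts of 12 genes in the single libraries at 0.2 µM FK506, on logarithmic y axes, with A53T in red and vector in dark grey. Points are libraries and lines are means of 3 libraries. The A53T points lie close together in each panel and do not overlap the vector points, with Map2 from 410 to 1484 in vector libraries.

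Of 35 complement and chemokine genes listed 17 were measured, beside 25 of 29 interferon response and 32 of 43 matrix genes. Of the 17 complement and chemokine genes 2 were higher and 5 lower. Cfb, complement factor B of the alternative pathway, read 7.06, 8.06 and 4.96 in A53T and 100.2, 79.8 and 85.3 in vector libraries. All A53T values lay far below the vector values, at a log2 fold change of -3.53 ± 0.36, with -2.06 in DMSO and -2.74 at 2.0 µM. Of 25 interferon response genes 10 were lower (40%) and 4 higher (16%), against 35.1% and 33.8% of all genes. Ifi27, an interferon-induced protein, fell by 1.75 and Usp18, which removes the modifier Isg15 from proteins, by 1.86. Of 32 matrix genes 12 were higher (37.5%) and 9 lower (28.1%), shares near those over all genes. Mmp16, a membrane-bound metalloprotease, and the perineuronal net proteins Tnr and Ncan rose by 1.94, 2.75 and 1.69. Sparcl1, a synapse-promoting protein that astrocytes secrete, read 17375, 17178 and 17178 in A53T and 31724, 34661 and 30297 in vector libraries.

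The 14 largest rises among genes that passed, averaged 50 or more and had no overlap ran from 5.10 to 6.43 on the log2 scale. Ino80d, a subunit of the INO80 chromatin remodeller, led with 292, 242 and 284 in A53T and 0.982, 2.82 and 3.27 in vector libraries. It was followed by Kcna2 and by Erbb4, the neuregulin receptor of interneurons, with 825, 807 and 764 in A53T and 6.93, 23.0 and 17.1 in vector libraries. Vector values lay far below A53T values in these 3 genes. Of the 14, 13 had a vector mean below 50 and met the limit on the mean of both groups through A53T, and vector means ran from 2.36 to 108. Size and order therefore depend on the pseudocount, and Ino80d had 6.85 with a pseudocount of 0.25 and 5.46 with 4. Others among them were Fam199x, the potassium channel Kcna3, the Argonaute protein Ago3, the transcription factors Klf12, Tead1 and Stox2, the fucosyltransferase Fut9, the polycomb protein Phc3, the protocadherin Pcdh11x and the amino acid transporter Slc7a2. Kcna3, Stox2, Pcdh11x and Slc7a2 did not pass in the score-adjusted fit.

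The 14 largest falls under the same conditions ran from -2.87 to -1.95. Crabp1, which binds retinoic acid, read 141, 165 and 172 in A53T and 1342, 1209 and 996 in vector libraries, with -1.72 in DMSO and -1.01 at 2.0 µM, where it also passed. Igfbp4, which binds insulin-like growth factors, read 167, 165 and 159 in A53T and 873, 925 and 777 in vector libraries, with -2.15 in DMSO and -1.27 at 2.0 µM. For both genes A53T was lower than vector at every dose. The others were the protease inhibitor Cst6, the tubulin-binding protein Tppp3, the sulfotransferase Sult1a1, Nrgn, the calcium-binding protein Cabp1, the kinase Map4k1, Cck, C1qtnf4, LOC103692984, the interferon-induced tetherin Bst2, the synaptic scaffold Lin7b and the transcription factor Pou3f1. LOC103692984 did not pass in the score-adjusted fit, and the other 13 did.

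Genes annotated as miRNA loci were read through messenger RNA libraries, so their values are of primary or host transcripts and not of mature miRNAs, and overlapping host genes cannot be told apart from them. Of 26 measured 7 were higher and 2 lower in A53T, against 33.8% and 35.1% of all genes. Mature sequences matched 7 of these 9 in RefSeq (build GRCr8). The arms below are given because they name what each locus could produce, with the seed (bases 2 to 8) in capitals, and no seed was shared among them.
rno-miR-770-5p: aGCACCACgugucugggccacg
rno-miR-2985: uGUUAUAGuaucccaccuaccc
rno-miR-186-5p: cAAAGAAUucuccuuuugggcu
rno-miR-22-3p: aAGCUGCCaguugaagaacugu
rno-let-7b-5p: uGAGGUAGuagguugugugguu
Mir770 read 311, 306 and 313 in A53T and 21.8, 35.5 and 47.6 in vector libraries, and Mir2985 read 130.1, 110 and 113 in A53T and 2.97, 16.3 and 5.89 in vector libraries. Mirlet7b read 10.3, 8.06 and 11.9 in A53T and 35.7, 34.6 and 27.7 in vector libraries, and Mirlet7c-2, of the same let-7 family, fell by 1.65. The A53T and vector libraries did not overlap for these 4 loci, as for 85.4% of all genes. Mir186 rose by 2.60, Mir22 by 0.96, Mir124-2 by 3.33, Mir3593 by 3.19 and Mir3064 by 1.91. The call of Mir22 was lost without A53T library 2, vector library 1 or vector library 2 (adjusted p = 0.0686, 0.082 and 0.0848) and under quantile normalization, and that of Mir3593 with a pseudocount of 0.25 in place of 1. Of the 9 loci Mir770 passed in the score-adjusted fit, at 1.66 (adjusted p = 0.0496).

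A53T at 0.2 µM entered the comparisons between doses as 1 sample. A shift of that sample alone cannot be told apart from a dose-dependent A53T effect. Whether the A53T effect at 0.2 µM differed from the effect in DMSO was tested as an interaction, with no library shared between the 2 effects. It was larger at 0.2 µM (more positive or less negative) for 2491 genes (22.1%) and smaller for 2830 (25.2%), 47.3% in all, and the score-adjusted fit called 1182 and 1023. Without A53T library 1 in DMSO, which leaves 1 library in that group, 1767 were larger and 1826 smaller. Of the genes higher in A53T in DMSO 62.9% were also higher at 0.2 µM, which is 10.9% of those higher at 0.2 µM. Of the genes lower in DMSO 72.7% were also lower at 0.2 µM, which is 17% of those lower at 0.2 µM. Across genes the log2 fold changes at 0.2 µM and in DMSO correlated with r = 0.544, as a description over 11247 genes. All 63 cytosolic ribosomal, 50 of 54 respiratory and 29 of 34 proteasome genes had a lower effect at 0.2 µM than in DMSO, and 27 of 34 channel and 21 of 23 large-regulator genes a higher one. Slc5a3, the inositol transporter induced by osmotic stress, read 265, 255 and 259 in A53T and 7.93, 5.70 and 6.74 in vector libraries at 0.2 µM, and its effect exceeded that in DMSO by 5.75 ± 0.56.

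Against 2.0 µM the A53T effect at 0.2 µM was larger for 3817 genes (33.9%) and smaller for 3834 (34.1%), 68% in all, and 1251 and 1202 in the score-adjusted fit. Of the genes higher in A53T at 2.0 µM 21.8% were also higher at 0.2 µM and 43.7% were lower. Of those lower at 2.0 µM 26.2% were also lower at 0.2 µM and 37.0% were higher. Across genes the 2 effects correlated with r = -0.392. Olig1, a transcription factor of the oligodendrocyte lineage, read 1129, 1149 and 1149 in A53T and 1992, 1824 and 1690 in vector libraries at 0.2 µM, a fall of 0.68, while its log2 fold change at 2.0 µM was 1.78. The difference of -2.46 ± 0.11 passed. Of 23 reactive astrocyte genes 0 were higher and 15 lower in A53T at 2.0 µM, against 9.88% and 9.7% of all genes. Of these 23, 11 had a higher and 1 a lower effect at 0.2 µM than at 2.0 µM, against 33.9% and 34.1% of all genes.

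**Figure D5:**
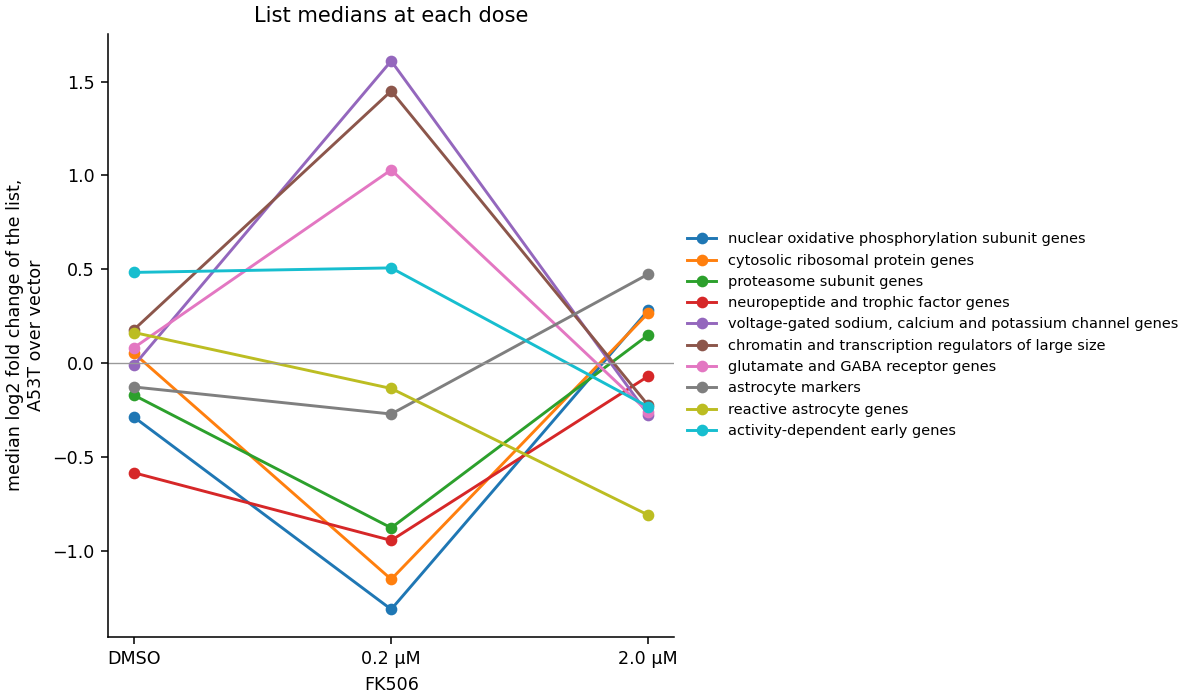
Median log2 fold change of A53T over vector (y axis) of 10 gene lists in DMSO, 0.2 µM and 2.0 µM FK506 (x axis), with 1 line per list. Channel genes peak at 1.61 and respiratory genes dip to -1.31 at 0.2 µM, while early genes have medians of 0.48, 0.51 and -0.23 in that order of doses.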

How the data were processed

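Messenger RNA of rat cortical cultures was read as 17 stranded mRNA libraries, per the labels' protocols. The submitters' processing notes list FastQC, TopHat, HTSeq and build rn6 without versions. The deposited signal is gene counts normalized by the authors, by a method that no label states. In most libraries low values were not multiples of 1 step, so no count test was run. The column of the second A53T library in DMSO carries another number than its title and was used without a number.

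Values were analysed as log2(value + 1), a scale that understates the change of low genes, in limma 3.58.1 under R 4.3.3, with an abundance trend in the prior variance. The fit had 1 mean for each of 6 groups over 15 samples, the 3 libraries of A53T at 0.2 µM entering as their mean, and 9 residual degrees of freedom. A lone sample of this kind is taken to vary as other groups do. Adjusted p-values are Benjamini-Hochberg over all 11247 genes, two-sided, with a threshold of 0.05, and no gene was filtered out. No label says whether libraries of 1 group are separate cultures, so the spread behind the p-values may be technical.

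Genes were named by a rule: the synucleins and the calcineurin list, the 14 largest rises and falls that passed, averaged 50 or more and did not overlap between groups, up to 6 members of each list by smallest p with members described beside them, and the 6 largest differences between doses each way. A few genes that the rule names are not reported here. The members, lists and rule were chosen with earlier results of these data known. RefSeq tables of build GRCr8 gave names and sequences, and figures were drawn with matplotlib 3.10.9. Alternatives were other pseudocounts, scalings, filters, sample sets, a replicate block, the library score as a covariate and leaving out single libraries.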

Additional observations from a re-analysis of the deposited data

Results flagged for a closer look

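The results below were picked out because the A53T effect at 0.2 µM FK506 differed from that at another dose in a direct test of the difference, by limma with adjustment over all genes. In all 5321 genes differed from their effect in DMSO and 7651 from their effect at 2.0 µM. Values are differences between log2 fold changes of A53T over vector, 0.2 µM minus the other dose.

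Against DMSO, the largest positive differences were those of Ino80d (7.60), Kcna2 (6.69), Erbb4 (5.98), Slc5a3 (5.75), Tead1 (5.64) and Ago3 (5.16). The largest negative ones were those of Gdf15 (-2.19), Cst6 (-1.92), Pyy (-1.79), Klf2 (-1.68), Hspa1a (-1.64) and Bc1 (-1.59). Gdf15, a cytokine of cellular stress, had a log2 fold change of 0.50 at 0.2 µM, 2.69 in DMSO and -4.14 at 2.0 µM. Gdf15 read 73.1, 60.8 and 66.9 in A53T and 49.6, 42.2 and 50.1 in vector libraries at 0.2 µM, and this difference did not pass. Bc1, a short RNA of neuronal dendrites, lost its call without A53T library 1 in DMSO (-1.70), without the unnumbered A53T library in DMSO (-1.49), without vector library 2 in DMSO (-1.40) or without vector library 1 at 0.2 µM (-1.37).

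Against 2.0 µM, the largest positive differences were those of Slc5a3 (7.10), Erbb4 (6.63), Atp7a (6.56), Kcna2 (6.48), Zbtb20 (6.44) and Lrrc58 (6.33). The largest negative ones were those of Btbd17 (-2.96), Timp4 (-2.87), Olig1 (-2.46), Enho (-2.44), Apln (-2.42) and Tst (-2.36). In these 6 genes A53T was lower than vector at 0.2 µM and higher at 2.0 µM, where their log2 fold changes ran from 0.78 to 2.33. With the library score as a covariate, the differences of Pyy (-0.59) and Bc1 (-0.36) against DMSO and of Atp7a (3.44) and Lrrc58 (-0.22) against 2.0 µM did not pass, and the other 20 did.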

How the results depend on the processing

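Over the alternatives run, the count of genes called stayed within 1.5 times that reported, in each direction and for each of the 3 comparisons, except as follows. With the library score as a covariate, 1539 genes were higher and 1697 lower in A53T at 0.2 µM, of which 1406 and 1209 had the same call as in the fit without the score. The difference from DMSO then had 1182 higher and 1023 lower, and the difference from 2.0 µM 1251 and 1202. With the groups compared alone and every library a separate sample, 3908 genes had a higher effect at 0.2 µM than in DMSO. Leaving out single libraries gave 3487 to 3834 genes higher and 3631 to 3955 lower at 0.2 µM. The difference from DMSO then had 1767 to 2512 higher and 1826 to 2866 lower, and the difference from 2.0 µM had 3538 to 3932 and 3606 to 3916. The lowest counts against DMSO came without A53T library 1 in DMSO.

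Deviations from group means correlated at -0.031, -0.062 and -0.012 between A53T and vector libraries of the same number at 0.2 µM. Of the 3 numbers, 0 correlated best with itself. This cannot decide whether libraries were paired, because the A53T libraries differed from each other by little more than sampling noise. With a replicate block and every library a separate sample, 4431 genes were higher and 4516 lower in A53T at 0.2 µM, against 4479 and 4602 without the block. The fit with the block left out the unnumbered A53T library in DMSO, so its counts against DMSO are not given. The difference from 2.0 µM had 4229 and 4207 genes with the block, against 4308 and 4296 without it.

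Of 182 results for named genes, 11 reversed, all with the score as a covariate. The values were -0.080 for Aqp4, 0.051 for Bc1, 0.013 for Gfap, 0.30 for Hspa1a, -0.28 for Lrrc58, -1.50 for Nfatc2, -0.24 for Ppp3ca, -0.83 for Ppp3cb, -0.053 for Ppp3r1 and 0.089 for Pyy at 0.2 µM, and -0.22 for the difference of Lrrc58 from 2.0 µM. In that setting 37 further results no longer passed and 132 kept direction and call. The cause was not tested. Quantile normalization moved the median of all genes to -0.22 and gave 3285 genes higher and 4928 lower, and the list median of oligodendrocyte and fibroblast markers then fell below 0. It also gave -0.65 for Gapdh, -0.37 for Atp5a1 and -0.17 for Gfap. Raw depth is unknown, so no counting interval is given for single values.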
